A study of Mus musculus with 6 samples.

Results

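Genes of cellular iron handling were followed in RNA of mouse retinal pigment epithelium (RPE): the carrier transferrin (Trf), its receptor (Tfrc), the ferritin heavy and light chains (Fth1, Ftl1), haem oxygenase 1 (Hmox1), the exporter ferroportin (Slc40a1), the importer DMT1 (Slc11a2), the ferroxidases ceruloplasmin (Cp) and hephaestin (Heph), and iron regulatory protein 1 (Aco1). These 10 genes were chosen by symbol, out of 28043 in the tables, and all 10 passed the filter on low counts. The list was drawn up with the PVR minus Normal values of these same libraries in view. The comparison of the 10 genes is therefore a description, no p-value is given for them, and nothing is supported with their calls. RNA came from primary RPE cells of eyes labelled normal (3 libraries, Normal) and of eyes with proliferative vitreoretinopathy (3 libraries, PVR), a scarring of the retina after injury that the series title calls traumatic. Not given in the sources used here are the strain and age of the mice, the way PVR was induced and the number of eyes or animals behind a library. A p-value therefore measures the spread between libraries alone, and that spread may be technical.

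Iron travels in plasma bound to transferrin, enters cells by endocytosis of the transferrin receptor and crosses the endosome membrane through DMT1. Inside the cell it is used, stored in ferritin shells of heavy and light chains, or exported by ferroportin, with ceruloplasmin or hephaestin oxidising it on the way out, and haem oxygenase 1 frees iron from haem. The RPE lies between the choroidal blood and the photoreceptors and is known to make transferrin and to handle the iron that reaches the outer retina. Iron regulatory proteins bind a stem-loop, the iron-responsive element (IRE), when iron is low. An IRE in the 5′ untranslated region (UTR) then blocks translation, and IREs in the 3′ UTR protect the mRNA from decay.

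The IREs are shown because the members differ in them, by place and number, and because transcripts that hold them moved in opposite directions in PVR. The search was for 27 bases made of a C, 5 bases, the loop CAGTGN and 5 bases that pair with the first 5 (G-T pairs allowed), with 5 bases on either side of which at least 4 pair. It was run on the UTRs of GENCODE M21 transcripts (GRCm38, the assembly also called mm10), on the sense strand. Matches were found in 4 of the 10 genes, and the loop is in capitals, 5′ to 3′. The first 3 elements lie in 5′ UTRs, in Fth1 (chr19:9982733-9982759, plus strand), Ftl1 (chr7:45459780-45459806, minus) and Slc40a1 (chr1:45925466-45925492, minus). The other 4 lie in the 3′ UTR of Tfrc (plus strand), at chr16:32631220-32631246, chr16:32631599-32631625, chr16:32631664-32631690 and chr16:32631711-32631737.
Fth1: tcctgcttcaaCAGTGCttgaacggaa
Ftl1: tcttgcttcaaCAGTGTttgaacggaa
Slc40a1: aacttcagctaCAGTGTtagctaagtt
Tfrc element 1: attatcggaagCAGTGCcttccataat
Tfrc element 2: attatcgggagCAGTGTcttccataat
Tfrc element 3: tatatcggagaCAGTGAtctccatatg
Tfrc element 4: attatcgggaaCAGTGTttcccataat

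In the ferritin elements 4 of the 5 outer bases pair, and in those of Slc40a1 and Tfrc all 5 do. The pattern is rare: 6 of 20899 genes with an annotated 5′ UTR held it there (0.0287%), and 11 of 21022 genes with a 3′ UTR (0.0523%). UTRs of any length were searched, and per 100 kb of the longest UTR of each gene there were 0.0985 matches in 5′ UTRs and 0.045 in 3′ UTRs. Tfrc accounted for 4 of the 14 matches in 3′ UTRs. The letters searched were not in the UTRs of the other 6 members, which says nothing of other forms of the element. A match is a description of the sequence, and binding was not measured.

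Of the 10 genes, 5 were called higher in PVR (Slc40a1, Hmox1, Trf, Fth1 and Ftl1) and 3 lower (Tfrc, Aco1 and Heph), whereas Slc11a2 and Cp were not called. A gene is called where limma gives a Benjamini-Hochberg adjusted p under 0.05 over all 15766 genes tested. Among those genes 17.9% were called higher and 12.9% lower, or 30.8% in all. The ranges of the 3 PVR and 3 Normal libraries did not overlap for the same 8 members, nor for 48.0% of all genes tested. Levels below are normalised read counts, and a mean comes with its SD (n = 3 libraries). A log2 change is PVR minus Normal of log2(normalised count + 1), with its standard error (SE). The median log2 change was 0.98 over the 10 members and -0.02 over all genes tested.

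**Figure D1:**
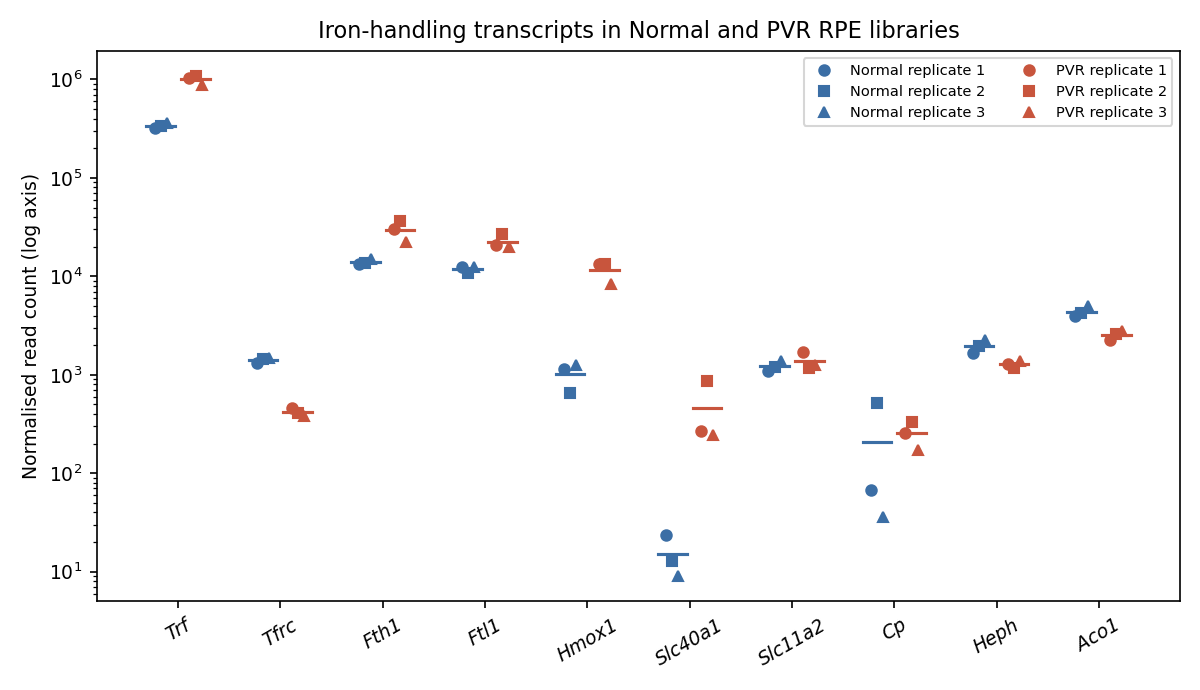
Normalised read count (log axis) of each of the 10 genes, with 1 symbol per library (blue Normal, red PVR, shape by replicate number) and a line at each group mean. Trf stands near 1000945 in PVR, Tfrc and Aco1 sit lower in PVR than in Normal, and the groups overlap for Slc11a2 and Cp.

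The libraries held 15269983 to 19173187 reads assigned to genes. RPE genes dominated both groups: 10 RPE markers summed to between 791620 and 847954 normalised counts in Normal and between 565278 and 615465 in PVR, with 0 higher and 5 lower. Best1, a defining RPE gene, was nearly absent, at 7.56 to 22.8. Of 12 macrophage and microglia markers 11 were higher and 1, Csf1r, lower. Their sum was 10079 to 11727 in Normal and 15144 to 23191 in PVR, and without Csf1r, left out after its values were seen, it was 488 to 919 in Normal and 6909 to 15831 in PVR. Fibroblast markers (6 of 8 higher) summed to 2276 to 5827 and then 12303 to 18440. Of 7 tested markers of Müller glia and astrocytes, 2 were higher (Vim, 5.43-fold, and Dkk3, 4.29-fold) and 1 lower. The lower one, Rlbp1 (89266 ± 6419 to 45597 ± 7111), is also 1 of the 10 RPE markers. The sum of all 8 glial markers was 231822 to 246953 and then 193921 to 244910. Most of it came from Apoe, Rlbp1 and Glul, so it says little of glia. No marker found in the tables was at 0 in all 3 libraries of a group. The part of these other cells in the results on iron genes was not tested, and in bulk RNA fewer cells of a type and less RNA per cell cannot be told apart.

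Transferrin was the dominant transcript. Trf (chromosome 9, 103204001 to 103230444, minus strand) stood at 318169, 332872 and 360314 in Normal replicates 1 to 3 and at 1025626, 1090646 and 886561 in PVR replicates 1 to 3. The groups were far apart, and the lowest PVR library lay above the highest Normal library. The means were 337118 ± 21391 and 1000945 ± 104257, a ratio of 2.97 (log2 change 1.57, SE 0.13). Trf took 1.94%, 2.10% and 2.07% of all gene reads in the Normal libraries, where it ranked first or second among all genes by count. In PVR it took 5.69%, 6.27% and 5.28% and ranked first in every library. The 95% Wilson intervals of these shares, which cover counting error only, were at most 0.0243 percentage points wide. Since 1 gene took this much of a library, scaling was checked with the Trf reads left out of the totals, and the log2 change of Trf was then 1.55. Trf is also a known transcript of oligodendrocytes, and of their 6 tested markers 3 were higher (Mbp, Mag and Cnp) and 1 lower (Sox10). Mag went from 2.87 ± 0.965 to 53.5 ± 10.1, and the sum of the list was 5513 to 5998 in Normal and 4682 to 5399 in PVR. Most of that sum was Sox10, which fell from 4556 ± 261 to 3391 ± 337, so the sum mainly follows this 1 gene. The part of such cells in the Trf values was not tested.

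The receptor went the other way. Tfrc, which takes up iron-loaded transferrin (chromosome 16, 32608920 to 32632794, plus strand), was at 1319, 1435 and 1485 in Normal and at 455, 404 and 383 in PVR. All 3 PVR libraries lay at less than the lowest Normal value, and replicates within a group were close. The mean went from 1413 ± 84.9 to 414 ± 37.3 (log2 change -1.77, SE 0.11), so Normal held 3.41 times the PVR level. Tfrc is also known as a gene of dividing cells, and 5 of 8 proliferation markers were higher in PVR and 1 lower. Their summed level was 1388 to 1578 in Normal and 1956 to 2597 in PVR. Most of the Normal sum was Pcna (919 ± 92.7, and 933 ± 58.0 in PVR), so the sum says little of the other markers. Mki67 went from 21.3 ± 13.1 to 343 ± 162 and Top2a from 11.4 ± 3.02 to 275 ± 137. Cdk1, the 1 lower marker, went from 323 ± 26.6 to 224 ± 37.9.

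Both ferritin chains were higher. Fth1, the heavy chain that oxidises iron as it enters the shell (chromosome 19, 9980598 to 9985098, plus strand), had 13419, 13542 and 15082 in Normal and 30229, 36279 and 22368 in PVR. PVR replicate 3 was the lowest of its group and still above every Normal library. The mean rose from 14015 ± 926 to 29625 ± 6975 (log2 change 1.05, SE 0.17). Ftl1, the light chain that helps the mineral core form (chromosome 7, 45457944 to 45459884, minus strand), had 12585, 10802 and 12549 in Normal and 20992, 26672 and 20062 in PVR. Here too the groups did not overlap, and PVR replicate 2 was the highest. The mean rose from 11979 ± 1019 to 22575 ± 3578 (log2 change 0.91, SE 0.14).

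The ratio of Fth1 to Ftl1 counts within a library ran from 1.07 to 1.25 in Normal and from 1.11 to 1.44 in PVR. These ratios overlapped between the groups (1.17 ± 0.0968 and 1.31 ± 0.169), so no shift between the chains stood clear of the spread. The ratio of Fth1 to Tfrc, storage against uptake, was 9.43 to 10.2 in Normal and 58.5 to 89.7 in PVR. Ferritin has near-identical copies elsewhere in the genome. Ftl1-ps1 on chromosome 13, which carries an element with the same letters as that of Ftl1, had 196 ± 17.3 in Normal and 368 ± 105 in PVR. Fth-ps2 and Ftl2-ps had at most 15 reads in any library. How the counting divided reads among such copies is not known here, so the ferritin levels are uncertain.

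Hmox1, the inducible enzyme that opens the haem ring (chromosome 8, 75093621 to 75100589, plus strand), had 1139, 658 and 1272 in Normal and 13205, 13389.6 and 8414 in PVR. Normal replicate 2 and PVR replicate 3 were the lowest of their groups, and the gap between the groups was wide. The mean rose 11.4-fold, from 1023 ± 323 to 11669.6 ± 2821 (log2 change 3.53, SE 0.30). Its rank by count went from between 2711 and 4690 in the Normal libraries to between 119 and 227 in PVR. Hmox2, the constitutive form of the enzyme, had 562 ± 17.5 and 502 ± 32.7 and did not pass the test (limma adjusted p = 0.279). Hmox1 counts were 1.13 to 2.30 times those of Hmox2 in Normal and 17.4 to 27.3 times in PVR. Exons of Hmox2 overlap those of Cdip1 on the opposite strand, and reads of the pair cannot be told apart.

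The export genes did not move as a group. Slc40a1, the exporter itself (chromosome 1, 45908068 to 45926523, minus strand), was scarce in Normal at 23.7, 13.0 and 9.06, which rest on 23, 14 and 10 reads. In PVR it had 267, 859 and 246. PVR replicate 2 stood above the other PVR libraries, and the lowest PVR value was well above the highest Normal value. The mean rose from 15.2 ± 7.58 to 457 ± 348 (log2 change 4.67, SE 0.54), and without PVR replicate 2 the log2 change was 4.08. Heph, the membrane ferroxidase (chromosome X, 96455359 to 96574485, plus strand), had 1673, 1952 and 2258 in Normal and 1291, 1180.0 and 1389 in PVR. The groups did not overlap, but the gap was narrow, and the mean fell from 1961 ± 293 to 1287 ± 105 (log2 change -0.60, SE 0.13).

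Cp, the ferroxidase secreted into plasma and also made in the eye (chromosome 3, 19957054 to 20009145, plus strand), depended on 1 library. It had 67.0, 518 and 36.3 in Normal and 258, 335 and 173 in PVR, so that Normal replicate 2 exceeded every PVR library while the other Normal libraries lay below them all. The means were 207 ± 269.5 and 255 ± 81.1 (log2 change 1.18, SE 1.03), and Cp was not called. On recovered reads edgeR gave a log2 change of 0.29 and DESeq2 one of 0.30. Without Normal replicate 2 it was called higher, with a log2 change of 2.30. That library also held the highest photoreceptor marker sum of the Normal group, 1435 against 605 and 826. Of the glial markers, Aqp4 (95.4 against 0 and 2.72), Slc1a3 (108 against 18.6 and 30.8), Dkk3 (3597 against 633 and 1082), Glul and Vim were highest there. Apoe was lowest there, and Rlbp1 and Gfap lay between the other Normal libraries. The fibroblast sum of that library (5827 against 3843 and 2276) and its endothelial sum (994 against 972 and 307) were the highest too, as were those of oligodendrocyte and erythroid markers. Fbln1 alone stood at 2244 there, against 161 and 169, so the rank of the fibroblast sum rests largely on this 1 gene. The sums of RPE, macrophage and proliferation markers were lowest there. Most of the proliferation sum was Pcna (846 against 1023 and 889) and Cdk1 (293 against 342 and 334). Mki67 (35.2 against 19.6 and 9.06) and Top2a (14.8 against 9.28 and 9.97) were highest in that library, and Ccnb1 (1.85 against 7.21 and 18.1) was lowest. PVR replicate 2, with Cp at 335, had a photoreceptor sum of 1419. Whether retinal or other cells played a part was not tested. Exons of Cp overlap those of Hps3 on the opposite strand, and since use of strand in counting is not given in the sources used here, reads of the pair cannot be told apart.

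Slc11a2, the transporter that carries iron out of the endosome (chromosome 15, 100387898 to 100425072, minus strand), had 1093, 1206 and 1388 in Normal and 1723, 1177 and 1250.5 in PVR. PVR replicate 1 was the highest, and the other PVR libraries lay inside the Normal range. The means were 1229 ± 149 and 1383 ± 296 (log2 change 0.16, SE 0.16). Its direction turned without PVR replicate 1 (log2 change -0.012), so no direction is given.

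Aco1, which acts as an enzyme when it holds an iron-sulfur cluster and binds IREs when it does not (chromosome 4, 40143081 to 40198338, plus strand), had 3945, 4280.5 and 4954 in Normal and 2273, 2581 and 2756 in PVR. The groups did not overlap. The mean fell from 4393 ± 514 to 2536 ± 245 (log2 change -0.79, SE 0.12). Ireb2, the gene of the second IRE-binding protein, had 2005 ± 171 and 1850.3 ± 194.5 and did not pass the test (limma adjusted p = 0.478). The ratio of Aco1 to Ireb2 counts was 1.98 to 2.45 in Normal and 1.28 to 1.45 in PVR.

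**Figure D2:**
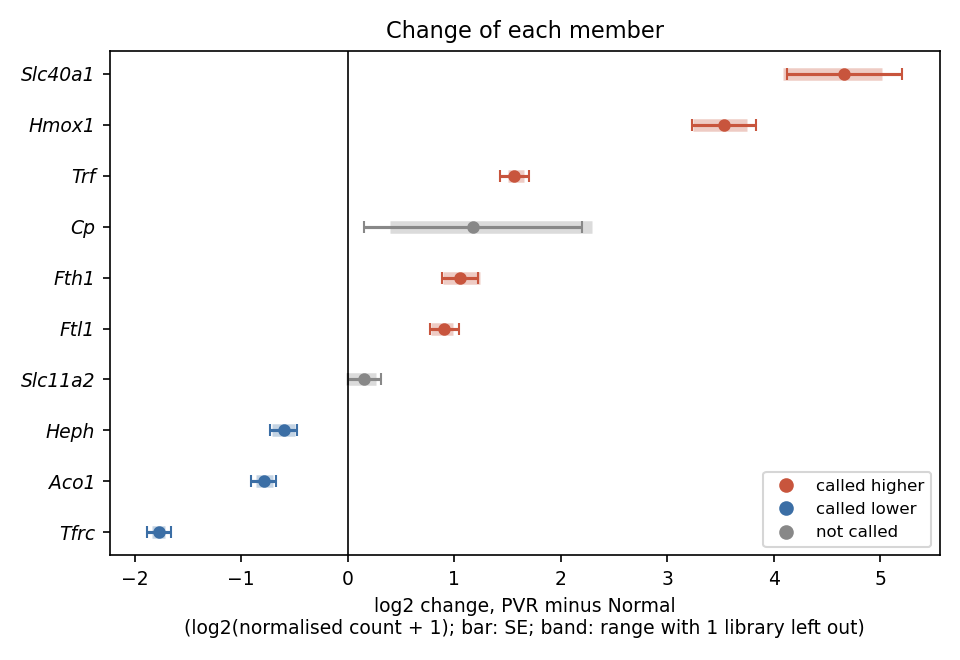
Log2 change of each of the 10 genes, PVR minus Normal, with its SE (bar) and the range over the fits that leave out 1 library (band). Slc40a1 and Hmox1 lie farthest to the right at 4.67 and 3.53, Tfrc farthest to the left at -1.77, and the band of Cp runs from 0.40 to 2.30.

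All 8 calls were kept in each of the 17 alternative fits, which changed the scaling, the test, the filter, the pseudocount, the replicate block or the libraries. Without Normal replicate 2, alone or together with PVR replicate 3, Cp joined the genes called higher, for 6 in place of 5.

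The order of levels was compared per kilobase of the longest annotated transcript of each gene, in normalised counts per kb. In Normal, Trf led at 131123 ± 8320, followed by Ftl1 (12375 ± 1053), Fth1 (6797 ± 449), Aco1 (1146 ± 134), Hmox1 (652 ± 206), Heph (413 ± 61.7), Tfrc (289 ± 17.4), Slc11a2 (278 ± 33.7), Cp (45.4 ± 59.1) and Slc40a1 (3.88 ± 1.93). Neighbours whose library values overlapped were Hmox1 with Heph and Tfrc with Slc11a2. In PVR the first 3 places were the same (Trf 389321, Ftl1 23322 and Fth1 14367). Hmox1 moved up to rank 4 with 7438 ± 1798, ahead of Aco1 (662 ± 63.9). Tfrc moved down to rank 9 with 84.7 ± 7.62, behind Slc40a1 (116 ± 88.6), with which it overlapped, as Slc11a2 did with Heph. The order of the ferritin chains depends on the transcript taken: with the transcript numbered 201 of each gene, Fth1 (15086 ± 997 in Normal, 31889.5 ± 7508 in PVR) stood above Ftl1 in both groups. With those transcripts Slc11a2 (406 ± 49.2) also stood above Tfrc (289 ± 17.4) in Normal, with no overlap of their libraries.

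Since macrophages are known to recycle iron and to use Hmox1, Slc40a1 and ferritin for it, the members were set beside the 11 macrophage markers other than Csf1r. The marker sum was 15831, 15616 and 6909 in PVR replicates 1 to 3. PVR replicate 3, with the lowest sum, also had the lowest Hmox1, Fth1, Ftl1, Trf and Slc40a1 of its group, and the lowest Tfrc. The fibroblast sum (16196, 18440 and 12303 in PVR replicates 1 to 3) and the proliferation sum (2019, 2597 and 1956) were lowest in that library too. The RPE sum (576709, 565278 and 615465 in the same order) was highest there. PVR replicates 1 and 2 had nearly equal sums but 267 and 859 counts of Slc40a1. The libraries fall into 2 groups, so no correlation was computed. Without PVR replicate 3 the log2 changes were 1.65 for Trf, 1.24 for Fth1, 0.99 for Ftl1 and 3.75 for Hmox1. The part of macrophages, fibroblasts, dividing cells or RPE cells in the level of each gene was not tested.

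**Figure D3:**
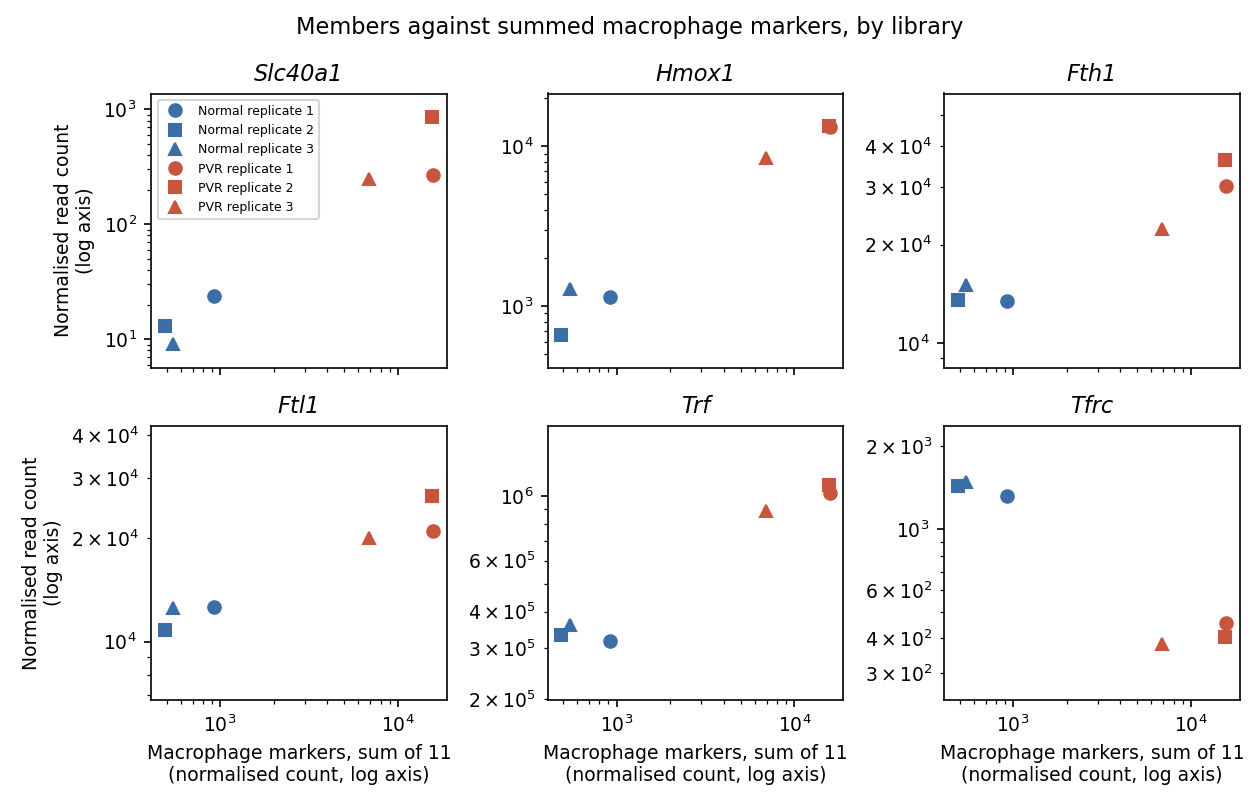
Normalised count of 6 of the genes against the summed normalised count of 11 macrophage markers (both log axes), 1 symbol per library, blue Normal and red PVR. The marker sum runs from 488 to 919 in Normal and from 6909 to 15831 in PVR, and the PVR points lie above the Normal points for each gene shown but Tfrc.

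Around the members, 7 lists of other iron and haem genes were drawn up by function (79 symbols, 76 in the tables, 71 tested). Across them 17 genes were higher in PVR and 7 lower, and 47 did not pass the test, with a median log2 change of 0.10. Beside these counts, and beside the count of each list that follows, stand the shares over all genes tested, 17.9% higher and 12.9% lower. No set test was run, and nothing particular to these lists is read from the counts. Without Normal replicate 1 the count of higher genes was 11. The count of lower genes was 4 without Normal replicate 3 or PVR replicate 2, and 13 under scaling to library totals. In the next paragraphs an adjusted p is limma's. Earlier results of these data were known when the lists were drawn up. The adjusted p-values of list genes, with those of Hmox2 and Ireb2 above, are therefore a description, and nothing is supported with them.

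Of 11 tested uptake and reductase genes, 6 rose and 1 fell (median log2 change 0.93). Lcn2, which encodes the siderophore-binding lipocalin 2, rose from 3.45 ± 2.63 to 477 ± 149 (log2 change 6.84, SE 0.43, adjusted p = 2.01e-05). Its Normal values rest on 2 to 7 reads, and with a pseudocount of 5 the log2 change was 5.82. Tfr2, the second transferrin receptor and an iron sensor, rose from 4.53 ± 2.68 to 122 ± 22.4 (log2 change 4.58, adjusted p = 0.000121), while Tfrc was lower. Its Normal values also rest on 2 to 7 reads, and with a pseudocount of 5 the log2 change was 3.76. At 147, 106 and 111 in PVR it stayed below the 383 to 455 of Tfrc. Steap3, the reductase of the transferrin endosome, rose from 91.6 ± 15.0 to 323 ± 38.7 (log2 change 1.82, adjusted p = 0.000155). The other 3 that rose were Slc39a14, an importer of iron not bound to transferrin (1010.0 ± 96.8 to 1924 ± 43.8), Slc39a8, of the same family, and the lysosomal channel gene Mcoln1, named here after their values were seen. The call of Slc39a8 was lost in 4 of the 17 alternatives and that of Mcoln1 in 6. Steap2, a further reductase, fell from 852 ± 130 to 601 ± 75.2 (adjusted p = 0.026), which did not pass when Normal 2, Normal 3, PVR 1 or PVR 2 was left out (adjusted p 0.0539 to 0.0989).

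In the hepcidin axis, the hormone system that closes ferroportin, 2 of 8 tested genes rose and 1 fell (median log2 change 0.47). Hamp, the hepcidin gene, was near 0 in both groups, with at most 3 reads in a library, and was not tested. Hfe, a partner of the transferrin receptors, rose from 398 ± 57.7 to 945 ± 61.1 (log2 change 1.25, adjusted p = 0.00017). Acvr1, a BMP receptor, rose from 375 ± 58.5 to 567 ± 59.9 (adjusted p = 0.0113). Bmp6, the ligand that reports iron load to hepcidin-making cells, fell from 4039.8 ± 787 to 1372 ± 205 (log2 change -1.55, adjusted p = 0.000183); its exons overlap those of Txndc5 on the opposite strand.

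Among 12 genes of haem scavenging, transport and breakdown, 3 rose and 1 fell (median log2 change 0.17). Blvrb, a biliverdin reductase that acts after haem oxygenase, rose from 139 ± 15.3 to 296 ± 53.7 (log2 change 1.07, adjusted p = 0.00189). Hp, which encodes the haemoglobin-binding haptoglobin, rose from 4.01 ± 2.58 to 40.5 ± 28.7 (log2 change 3.01, adjusted p = 0.00677). The Normal values of Hp rest on 1 to 6 reads, and with a pseudocount of 5 its log2 change was 2.20. Abcg2, an exporter that accepts porphyrins, rose from 22.8 ± 11.4 to 61.0 ± 15.2 (adjusted p = 0.0202), which did not pass when Normal 1, Normal 3 or PVR 2 was left out (adjusted p 0.0609 to 0.0778). Slc46a1, a folate transporter that also carries haem, fell from 706 ± 52.5 to 502 ± 57.1 (adjusted p = 0.0125, or 0.0532 without Normal replicate 3).

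Haem synthesis showed 1 higher and 2 lower of 9 tested (median log2 change -0.02). Alad fell from 2869 ± 184 to 2243 ± 186 (adjusted p = 0.0283) and Cpox rose from 173 ± 16.6 to 239 ± 17.7 (adjusted p = 0.0442). Alas2, the erythroid form of the first enzyme, fell from 29.7 ± 6.89 to 12.8 ± 3.52 (log2 change -1.16, adjusted p = 0.0487). Its values rest on 10 to 36 reads, and its exons overlap those of Apex2 on the opposite strand. None of these calls was firm: Alad lost it when Normal 2, Normal 3, PVR 1 or PVR 2 was left out (adjusted p 0.0802 to 0.0913), Cpox without any library but PVR replicate 3 (0.0581 to 0.131) and Alas2 without any library (0.0509 to 0.146). Globin transcripts, a mark of red blood cells, summed to 163 to 396 in Normal and 4.72 to 20.6 in PVR, and their part in the Alas2 values was not tested.

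Of 7 tested genes that sense, chaperone or release iron, 1 rose and 0 fell, against 17.9% and 12.9% of all genes. The gene that rose was Pcbp3 of the poly(C)-binding protein family, from 1454 ± 89.3 to 2204 ± 118 (log2 change 0.60, adjusted p = 0.00168). Fbxl5, which marks iron regulatory protein 2 for degradation, had 1048 ± 134 and 1103 ± 86.9 (its exons overlap those of Bst1 on the opposite strand), and Ncoa4, the receptor that takes ferritin to lysosomes, had 1099 ± 24.4 and 1133 ± 28.4. Of 13 genes of mitochondrial iron and iron-sulfur cluster assembly, 0 rose and 1 fell (median log2 change -0.19). That gene was Isca2 (510.5 ± 38.3 to 342 ± 23.8, log2 change -0.58, adjusted p = 0.0058).

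The last list held NRF2, BACH1 and genes of the oxidative response that they control, since Hmox1 and the ferritins are known targets of this pair. Of 11 tested, 4 rose and 1 fell (median log2 change 0.60). Srxn1, which encodes sulfiredoxin, rose from 428 ± 37.7 to 1506 ± 834 (log2 change 1.68, adjusted p = 0.0176, or 0.0555 without Normal replicate 1). Txnrd1, a thioredoxin reductase, rose from 2118 ± 547 to 4076 ± 988 (adjusted p = 0.0141, or 0.0568 without Normal replicate 1), and Gclc, of glutathione synthesis, from 1280.3 ± 124 to 2410.4 ± 759 (adjusted p = 0.0119). The other was Nfe2l2, the gene of NRF2 (964 ± 71.6 to 1446 ± 239.9), named after its values were seen. Nqo1, a quinone reductase often used as a readout of NRF2, fell from 3101 ± 348 to 1115 ± 406 (log2 change -1.53, adjusted p = 0.00236). It thus differed in direction from Hmox1 and from the 4 list members that rose.

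**Figure D4:**
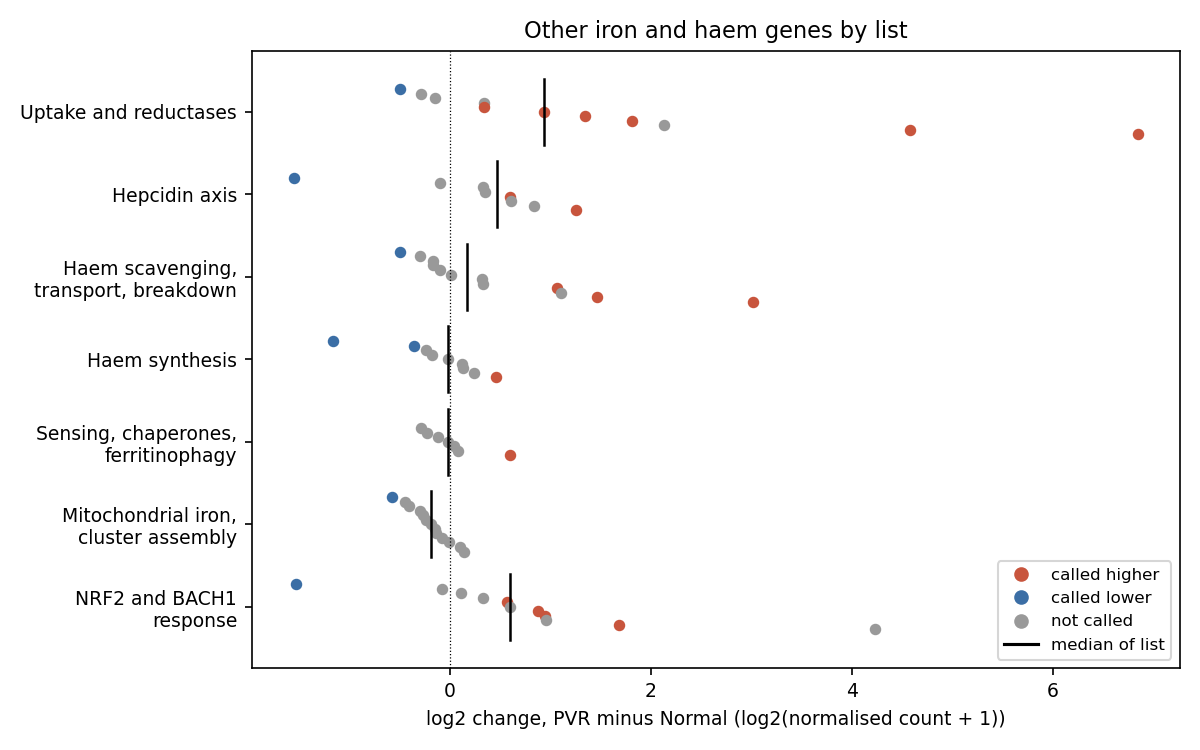
Log2 change, PVR minus Normal, of each tested gene of the 7 lists (1 point per gene, red higher, blue lower, grey not called), with a line at the median of the list. The medians run from -0.19 for mitochondrial iron to 0.93 for uptake, where Lcn2 and Tfr2 lie farthest to the right at 6.84 and 4.58.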

How the data were processed

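Polyadenylated RNA of primary RPE cells was sequenced in 3 Normal and 3 PVR libraries, grouped by their titles. Each deposited value is a signal on a normalised scale, which the values show to be the reads of a gene symbol over 1 factor per library. In every library 100% of the values were whole multiples of 1 step (within 0.001 reads), so reads were recovered. The factor of each library equalled the median-of-ratios size factor recomputed from the recovered reads (ratio 1 in every library). Build mm10 and DESeq2 are named, with no role, per the submitters' processing notes. Not given in the sources used here are aligner, counter, annotation and use of strand.

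The members and lists were chosen with earlier results of these data known. Limma 3.58.1 (R 4.3.3) was run on log2(value + 1), with trend and robust moderation, over the 15766 genes that passed filterByExpr of edgeR 4.0.16 (minimum count 10). The Benjamini-Hochberg adjustment ran over every gene tested (threshold 0.05). The fit was first tested on simulated data. Members are named in full, and from each list up to 3 called genes per direction with the largest change and groups that did not overlap. Alternatives were count tests by edgeR and DESeq2 1.42.0 on recovered reads, other scalings, filters and pseudocounts, a replicate block and leaving out libraries. Same-numbered libraries of the titles deviated together (r 0.181 to 0.237 across genes, against -0.168 to -0.0562 for other pairs). Deviations were taken from the mean of each group, so positive values for same-numbered pairs force negative ones among the other pairs. The negative values are therefore no separate evidence. Whether that is a pairing or a batch cannot be told apart, and the labels name neither. The main fit had no block, so its SE and p-values leave this shared deviation out of account. No 2 libraries were duplicates (chi-square per gene at least 17.8). Coordinates are 1-based, from GENCODE M21, which held all 10 members. The floor, set at 3 reads, was 2.72 to 3.42 normalised counts.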

Additional observations from a re-analysis of the deposited data

How the results depend on the processing

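The 17 alternatives, of which 2 (both doubted libraries left out, and library totals without Trf) were chosen after seeing the data, left the calls of the 8 called members as they were. With the replicate number as a block the members called were 5 higher and 3 lower, as without it, and 22 genes of the 7 lists were higher; the block changed no call of a member. Leaving out 1 library in turn gave 5 to 6 members called higher and 3 lower, 11 to 19 list genes called higher and 4 to 6 lower. Scaling to library totals gave 13 list genes lower in place of 7, and that scaling moved the median of all genes from -0.02 to -0.09 on the log2 scale. Over the same fits the log2 change of Slc11a2 ran from -0.012 (without PVR replicate 1) to 0.26. With Normal replicate 2 and PVR replicate 3 both left out Cp was called higher, with a log2 change of 2.55. The cause of these shifts was not tested. Counts of 23, 14 and 10 reads limit the Normal level of Slc40a1.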

Other observations

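The search for the IRE pattern also found genes outside the members, and their values are given here as a description. Of the 6 genes with a match in the 5′ UTR, all tested, 4 were called higher in PVR (Fth1, Ftl1, Ftl1-ps1 and Slc40a1) and 1 lower (Alas2), where 17.9% and 12.9% of all genes tested were. Fth1, Ftl1 and Slc40a1 are members chosen with these values known, and reads of Ftl1-ps1 and Ftl1 cannot be told apart for certain, so nothing is read from this count. The sixth, Ppp1r1b, which encodes a phosphatase inhibitor of dopamine signalling, had 458 ± 130 in Normal and 346 ± 115 in PVR and did not pass the test (limma adjusted p = 0.3). The tally of 3′ UTR matches leaves out those of 1 chromosome and holds 10 of the 11 genes with such a match. Of the 8 tested genes in it, 2 were higher, 2 lower and 4 not called, and Tfrc among the lower ones is a member. Besides Tfrc, Fbxl14 was lower (749 ± 58.4 to 575 ± 57.1, limma adjusted p = 0.0343). Rab11fip5, of endosome recycling, was higher (432 ± 15.2 to 688 ± 88.0, limma adjusted p = 0.00285), as was Slitrk2, a neuronal adhesion gene (15.8 ± 11.4 to 303 ± 112, limma adjusted p = 0.00226). Each of these 3 holds 1 match, against 4 in Tfrc, and whether they are bound by iron regulatory proteins was not tested.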
